A study of Mus musculus with 3 samples.

Results

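The replication-dependent histone genes are the gene copies that supply core and linker histones to dividing cells. They were taken as the protein-coding genes of chromosomes 1 to 19 with symbols H2ac, H2bc, H3c or H4c and a number, together with H1f1 to H1f6, in a mouse RefSeq gene table. The rule gave 63 of 20560 genes, of which 6 code for linker histone H1, 17 for H2A, 16 for H2B, 12 for H3 and 12 for H4. Nucleosome positions at these genes come from micrococcal nuclease sequencing, in which the enzyme cuts the DNA between nucleosomes and the protected fragments are sequenced. The cells were erythroblasts, the nucleated precursors of red cells, from fetal mouse liver, negative for the red cell surface marker Ter119 when culture began. They came from 6 fetuses and were grown in medium with insulin, 2 U/ml erythropoietin, 10% fetal bovine serum and 1% BSA, and chromatin was taken from purified cells after 0, 1 and 2 days of culture. All 3 groups share this medium. The series follows nucleosomes through the last steps of red cell formation. The sources used here do not give strain, genotype or the age of the fetuses, and position lists cannot show whether the cells carried the markers of their label.

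There was 1 library per day, so no difference between days has a replicate check and no test between days was made. The lists held 3735952, 2999502 and 4474045 positions on days 0, 1 and 2, or 1.53, 1.23 and 1.82 per kb of autosome. A position is 140 bp wide and carries a summit value, the smoothed and scaled coverage at its centre. In each library, nearly all summit values were whole multiples of 1 number, and taking 1 such step as 1 unit of coverage puts day 1 at 2.36 times and day 2 at 1.22 times the depth of day 0. The sources used here give no total number of reads. What part these differences in depth and calling have in the values below was not tested beyond the alternative settings of the closing section.

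In mammals, replication-dependent histone genes lie in dense clusters, mostly lack introns and give mRNAs that end in a stem-loop in place of a poly(A) tail. Their transcription rises in S phase in nuclear bodies organised by the protein NPAT. Gene families carry their own promoter elements, among them CCAAT boxes bound by NF-Y, TATA boxes, an octamer element of H2B genes bound by POU2F1, and an element of H1 genes read as AAACACA. Erythroblasts divide rapidly, then leave the cell cycle and condense their nuclei, so their need for new histones declines late on this path.

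The 63 genes fell into 5 clusters when neighbours within 100 kb were joined. The chromosome 3 cluster, chr3:96218885-96271192 with 1 kb added on each side, held 10 genes. On chromosome 13, the first cluster, chr13:21714711-21834475, held 17, the second, chr13:22034122-22044658, held 5, and the third, chr13:23530044-23765412, held 29. The last one, chr13:23932725-23935913, held only H2bc1 and H2ac1, known as testis histones. Coordinates are those of mm10, the build given by the submitters' processing notes, and gene spans are those of RefSeq for GRCm38.p6. Gene spans had a median of 492 bp, from 375 bp to 37455 bp, and 5 H2B genes (H2bc4, H2bc6, H2bc21, H2bc22 and H2bc23) had spans over 1 kb. Only 2 other protein-coding genes had spans that reached into the clusters. Hfe, which regulates iron uptake, lies inside the third cluster of chromosome 13. H4bc24, a histone gene under an older style of symbol, begins in the 1 kb added behind H2ac24, the last gene of the first cluster, and runs past its end.

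Promoter sequences from 250 bp upstream of the gene start to 50 bp inside it were found in RefSeq (GRCm38.p6) for 58 of the 63 genes. They are shown for 8 genes on which the results below turn, in the direction of the gene. Capitals mark matches, on either strand, to the letters of the CCAAT box (CCAAT), of the core of the TATA box (TATAA), of the octamer element (ATTTGCAT) and of the H1 element (AAACACA). A match on the other strand is shown as its reverse complement, and overlapping matches run together. The windows of H2bc15 (chr13:21753826-21754125, plus strand) and H2bc12 (chr13:22035571-22035870, plus strand) hold the whole gap to a divergent H2A gene, and that of H2ac1 (chr13:23934187-23934486, plus strand) most of the gap to H2bc1. H1f5 (chr13:21780576-21780875, minus strand) had the largest increase of day 2 over day 0 among H1 genes. H3c6 (chr13:23562336-23562635, minus strand) had the largest decrease among H3 genes. H4c8 (chr13:23530794-23531093, plus strand) was the highest H4 gene of day 2. H4c17 (chr13:21811496-21811795, plus strand) and H4c18 (chr13:21832148-21832447, minus strand) are shown because they are near-identical.
H2bc15: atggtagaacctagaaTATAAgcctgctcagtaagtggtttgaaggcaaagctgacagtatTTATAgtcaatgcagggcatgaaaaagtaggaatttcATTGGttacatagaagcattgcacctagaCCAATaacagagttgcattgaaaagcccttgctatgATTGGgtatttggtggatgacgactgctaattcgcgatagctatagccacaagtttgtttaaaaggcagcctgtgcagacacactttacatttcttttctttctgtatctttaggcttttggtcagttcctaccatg
H2bc12: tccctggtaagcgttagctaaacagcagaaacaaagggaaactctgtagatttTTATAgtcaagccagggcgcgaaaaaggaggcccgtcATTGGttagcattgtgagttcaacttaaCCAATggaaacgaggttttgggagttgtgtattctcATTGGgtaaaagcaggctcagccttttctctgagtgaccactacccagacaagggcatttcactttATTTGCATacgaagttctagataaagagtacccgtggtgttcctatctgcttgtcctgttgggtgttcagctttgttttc
H2ac1: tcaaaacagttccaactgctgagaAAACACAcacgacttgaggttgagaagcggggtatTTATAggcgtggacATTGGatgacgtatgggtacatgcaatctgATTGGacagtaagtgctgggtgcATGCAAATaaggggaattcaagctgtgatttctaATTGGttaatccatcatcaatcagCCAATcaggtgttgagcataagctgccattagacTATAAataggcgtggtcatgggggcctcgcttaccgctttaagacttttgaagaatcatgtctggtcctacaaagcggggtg
H1f5: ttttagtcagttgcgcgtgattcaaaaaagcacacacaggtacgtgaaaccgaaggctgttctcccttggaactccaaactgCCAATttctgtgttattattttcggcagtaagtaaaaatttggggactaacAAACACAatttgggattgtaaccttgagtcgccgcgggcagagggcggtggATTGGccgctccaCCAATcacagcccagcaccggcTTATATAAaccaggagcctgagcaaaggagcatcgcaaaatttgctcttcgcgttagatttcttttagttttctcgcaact
H4c8: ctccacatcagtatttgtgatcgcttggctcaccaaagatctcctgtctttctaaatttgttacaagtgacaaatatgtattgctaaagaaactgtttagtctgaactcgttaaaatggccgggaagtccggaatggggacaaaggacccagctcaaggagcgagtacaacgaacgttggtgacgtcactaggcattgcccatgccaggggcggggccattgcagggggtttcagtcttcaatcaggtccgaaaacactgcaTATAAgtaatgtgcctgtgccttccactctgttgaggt
H3c6: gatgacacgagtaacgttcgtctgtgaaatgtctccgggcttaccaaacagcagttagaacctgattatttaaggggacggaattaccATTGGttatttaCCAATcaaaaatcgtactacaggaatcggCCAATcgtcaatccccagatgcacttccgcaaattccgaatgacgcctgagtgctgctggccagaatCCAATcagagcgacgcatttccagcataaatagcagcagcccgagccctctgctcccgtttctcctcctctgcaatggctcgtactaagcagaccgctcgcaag
H4c17: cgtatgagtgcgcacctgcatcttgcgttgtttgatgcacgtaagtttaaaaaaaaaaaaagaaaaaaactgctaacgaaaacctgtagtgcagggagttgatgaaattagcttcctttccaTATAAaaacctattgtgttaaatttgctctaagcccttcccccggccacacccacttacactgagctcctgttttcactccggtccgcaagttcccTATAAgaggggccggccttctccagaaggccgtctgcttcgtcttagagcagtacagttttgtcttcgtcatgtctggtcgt
H4c18: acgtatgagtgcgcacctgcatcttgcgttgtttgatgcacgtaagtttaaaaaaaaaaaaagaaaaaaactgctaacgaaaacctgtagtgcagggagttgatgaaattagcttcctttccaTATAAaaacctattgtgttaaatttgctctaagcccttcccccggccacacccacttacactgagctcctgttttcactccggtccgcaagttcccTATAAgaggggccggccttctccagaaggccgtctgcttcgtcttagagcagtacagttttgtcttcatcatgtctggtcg

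The motifs were more frequent in these promoters than in those of protein-coding genes of chromosomes 1 to 19 as a whole. CCAAT was present in 86.4% of 59 histone promoters, against 38.1% of 20085 promoters of all genes, and TATAA in 78.0% against 21.9%. Every H1, H2A, H2B and H3 promoter searched held CCAAT, while 3 of 11 H4 promoters did. The octamer ATTTGCAT was present in 22% of histone promoters, against 1.67% of all, and all of these were H2A (6 of 17) or H2B (7 of 15) promoters. AAACACA was found in 5 of 6 H1 promoters and in 15.3% of histone promoters in all, against 6.25% of all. Since divergent H2A and H2B genes share the bases of their gap, their matches are not independent, and a match of letters is a description and not evidence of binding.

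Copies that resemble each other can exchange reads, and the files do not say how reads with several matching places were handled. H4c17 and H4c18 agreed at 298 of 301 aligned promoter positions, which is 99%. H3c15 and H3c14 agreed at 90.2% and H4c11 and H4c12 at 87.3%, and no other pair within a family passed 80%. Values of these 6 genes are uncertain for that reason. So are those of H2ac23 and H2ac7, which were 79.2% alike, and of H2ac18 and H2ac19, which lie beside H3c14 and H3c15 and were 75.3% alike. Protein and coding sequences were not compared here. Coding sequences lie inside the gene windows, so other genes may exchange reads too.

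Nucleosome occupancy of the histone genes was near that of other genes on day 0 and above it on days 1 and 2. Relative occupancy is the sum of summit values in the gene span with 1 kb on each side, taken per bp and set relative to the whole autosomes of that library. The 63 genes had median values of 1.81, 2.75 and 2.06 on days 0, 1 and 2. Over all 20560 genes it was 1.88, 2.01 and 1.70, so the histone genes stood at 0.96, 1.36 and 1.21 times the median gene. That median was exceeded by 25 of the 63 on day 0, by 50 on day 1 and by 50 on day 2. Other short genes, 2182 with spans from 300 to 2000 bp, had medians of 0.39, 0.39 and 0.63, and 605, 678 and 161 of them had no position at all. No histone gene was without a position on any day, and their windows held a median of 7, 8 and 9.

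**Figure D1:**
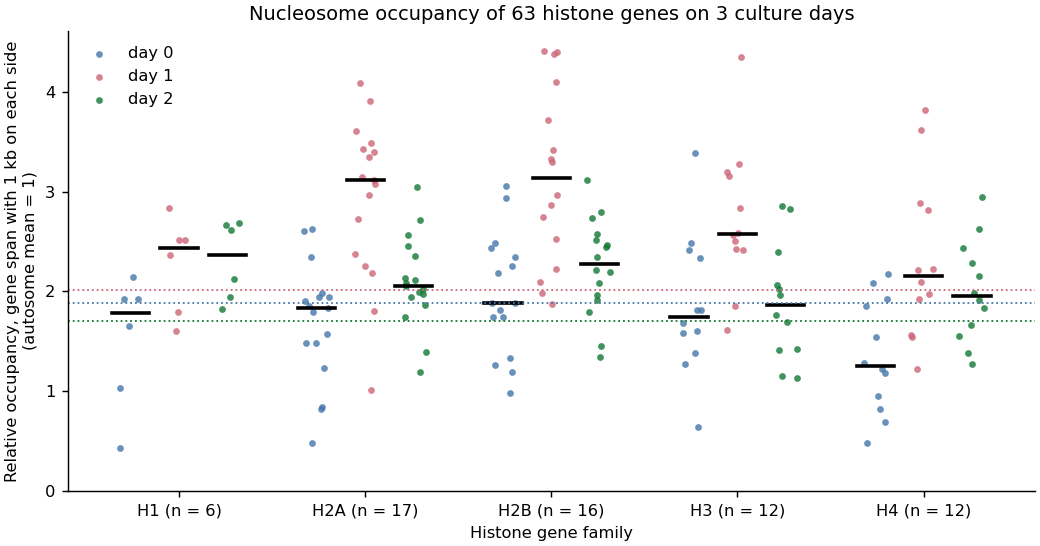
Relative occupancy (autosome mean 1, linear vertical axis) of each of the 63 histone genes on culture days 0, 1 and 2, by family; each point is a gene in 1 library, black bars are family medians and dotted lines the median of all protein-coding genes on each day. The H2A and H2B medians of day 1 (3.12 and 3.13) stand well above the dotted line of that day (2.01), and the H4 median of day 0 (1.25) stands below its own (1.88).

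From day 0 to day 1 most histone genes gained occupancy. The log2 ratio of day 1 over day 0, taken for genes with at least 3 positions on both days, had a median of 0.71 over 61 histone genes and of 0.19 over 18380 genes. It was above 0 in 58 of the 61, where it was in 11975 of the 18380, and exceeded the median gene in 55. A change of 2 times or more, a size rule and not a test, was met upward by 16 (26.2%), where 2.94% of all genes met it. Downward 0 met it, where 5.81% of all genes did, and the largest decrease was that of H2ac18 (-0.94). Histone gene windows held a median of 7 positions on day 0 and those of all genes 55, so these shares do not come from windows of like size. Among other short genes 9.80% of 847 met the rule upward and 5.19% downward. Fuzziness is a score for the spread of reads around a position centre, and with only the positions at or under the median score of their library the median ratio was 0.20 over 34 histone genes and 0.20 over all genes. The remaining histone genes, H2ac15 and H4c3, had 2 positions each on day 0 and were not given a ratio.

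From day 1 to day 2 the histone genes moved much as other genes did. Day 2 over day 1 had a median log2 ratio of -0.36 over all 63 and of -0.31 over 18515 genes. Downward 6 (9.52%) met the size rule, namely H2ac1, H2ac12, H2bc1, H3c2, H3c4 and H3c6, where 2.57% of all genes and 14% of other short genes did. Upward only H2ac18 met it, where 7.85% of all genes did; its windows held 8, 3 and 10 positions on days 0, 1 and 2.

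Day 2 over day 0 had a median of 0.20 over 61 histone genes and of -0.14 over 18837 genes. Upward 7 (11.5%) met the size rule, where 6.05% of all genes did, and downward 0, where 2.37% did. The 7 were H1f5, H2ac6, H2ac10, H2bc14, H3c11, H4c8 and H4c12. Relative to the median gene, 48 of the 61 were higher and 13 lower. Among positions of low fuzziness the median turned to -0.26 over 35 histone genes, against -0.18 over all genes. Those of H2A (-0.22), H2B (-0.39) and H4 (-0.18) turned below 0 as well. Day 1 was the highest of the 3 days in 46 of 63 histone genes (73.0%), against 53.7% of 19276 genes, and day 0 the lowest in 45 (71.4%), against 26.7%. The 3 comparisons share libraries, so these counts are not independent of each other.

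The linker histone genes, which bind the DNA between nucleosomes, had median occupancies of 1.79, 2.44 and 2.37. H1f5 (chr13:21779832-21780625) had the lowest occupancy of all 63 genes on day 0. Its values were 0.43, 1.79 and 2.66 on days 0, 1 and 2, from 3, 6 and 12 positions, and its log2 ratio of day 2 over day 0 (2.62) was the largest of all 63. H1f6, a testis linker histone, was highest on day 2 among the H1 genes, at 2.14, 2.84 and 2.68 on days 0, 1 and 2. H1f2, a somatic linker histone, was lowest at 1.03, 1.60 and 1.83. H1f3 had 1.93, 2.36 and 1.94, so days 0 and 2 were alike, and H1f1 and H1f4 lay between 1.65 and 2.62. All 6 exceeded the log2 ratio of the median gene in each of the 3 comparisons.

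H2A and H2B, which pair as dimers in the nucleosome, had the highest medians of day 1. H2A genes had medians of 1.83, 3.12 and 2.05 and H2B genes of 1.88, 3.13 and 2.28. H2ac10 (chr13:23533875-23534378) had 0.84, 3.07 and 2.36 on days 0, 1 and 2, from 4, 8 and 10 positions, with a log2 ratio of day 2 over day 0 of 1.49. H2ac22 was the highest H2A gene of day 2, at 1.57, 2.97 and 3.05. H2ac12 was the lowest of day 2, at 1.23, 3.43 and 1.19, and stood high on day 1 alone. H2bc14 (chr13:21722044-21722526) had 1.33, 2.97 and 3.11, the highest value of any of the 63 genes on day 2, from 6, 7 and 11 positions. H2bc15 was the lowest H2B gene of day 2, at 0.98, 2.09 and 1.35. H2bc18 on chromosome 3 had the highest value of day 1 (4.41), beside 2.94 on day 0 and 2.47 on day 2.

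The 3 testis histones were all higher on day 1 than on day 0 and lower on day 2 than on day 1. H2ac1 had 1.85, 3.61 and 1.39 and H2bc1 1.89, 3.32 and 1.46, which made them the H2A and H2B genes with the largest decreases of day 2 over day 0 (-0.42 and -0.37). Their windows overlap and share most positions. H1f6, which lies in the third cluster of chromosome 13 among somatic genes, had a ratio of 0.32, so the sign of day 2 over day 0 differed between it and the pair.

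H3 and H4 form the inner tetramer of the nucleosome. H3 genes had medians of 1.75, 2.58 and 1.86 and a median log2 ratio of day 2 over day 0 of -0.01, which became 0.14 when libraries were scaled to the median gene and 0.19 when they were scaled to the 200 kb beside each cluster. H3c11 (chr13:21782915-21783397) had 0.64, 1.61 and 2.03, and a ratio of 1.66. H3c6 had 1.82, 2.41 and 1.15 and the largest decrease of all 61 genes (-0.66). H3c14 was highest on day 2 within the family, at 2.49, 2.57 and 2.85, and H3c2 lowest, at 1.28, 2.59 and 1.13. H3c13 on chromosome 3 had the highest value of day 0 among all 63 genes (3.39), beside 4.35 on day 1 and 2.40 on day 2.

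H4 genes had the lowest median of the families on day 0 and on day 1, with 1.25, 2.16 and 1.95. All 11 with a ratio were higher on day 2 than on day 0, where 7045 of 18837 genes as a whole were. Among positions of low fuzziness the sign of the H4 median reversed, as given above. H4c8 (chr13:23531044-23531478) had 1.18, 2.82 and 2.95 and was the highest H4 gene of day 2. H4c12 had 0.69, 1.55 and 1.92 and the largest ratio of the family (1.48), and its neighbour H4c11 had 0.82, 1.57 and 1.27, the lowest H4 value of day 2. H4c17 had 2.17, 3.61 and 2.29, with the smallest ratio of the family (0.07), and its near-copy H4c18 had 1.85, 2.23 and 2.43. H4c3 had 0.48, 1.97 and 1.56, from 2, 6 and 7 positions.

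By cluster, the chromosome 3 genes had the highest medians, 2.42, 3.66 and 2.52. The first cluster of chromosome 13 had medians of 1.57, 2.84 and 2.13, the second 1.88, 2.52 and 1.96 and the third 1.60, 2.51 and 1.96. The 200 kb on each side of the chromosome 3 cluster stood high too, at 3.12, 3.44 and 2.45. Pooled gene windows there stood at 0.82, 1.00 and 1.01 times these sides. The same ratio was 1.07, 1.93 and 1.54 in the first cluster of chromosome 13 and 1.25, 1.78 and 1.28 in the second. In the third it was 1.00, 1.51 and 1.31 and in the last 1.00, 1.89 and 0.90. Upward from day 0 to day 1 the size rule was met by 8 of 16 genes with a ratio in the first cluster of chromosome 13 (50%). In the second it was met by 2 of 5 (40%), in the third by 6 of 28 (21.4%) and in the last by 0 of 2. On chromosome 3 it was met by 0 of 10. Low values of day 0 lay side by side in the first cluster. H4c11, H4c12, H2ac15, H2bc15, H1f5 and H3c11, chosen after their values were seen, are neighbours in chr13:21734034-21784397 and had 0.43 to 0.98 on day 0, 1.55 to 2.09 on day 1 and 1.27 to 2.66 on day 2. The other 11 genes of the cluster had 1.33 to 2.63, 2.23 to 4.10 and 1.42 to 3.11. That the groups were apart on day 0 follows from the choice of the low genes and is not a result. They were apart on day 1 as well, with values also known at the choice, and overlapped on day 2. How often such runs occur at other genes was not tested. The whole stretch, spaces included, stood at 1.53, 2.77 and 2.16.

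**Figure D2:**
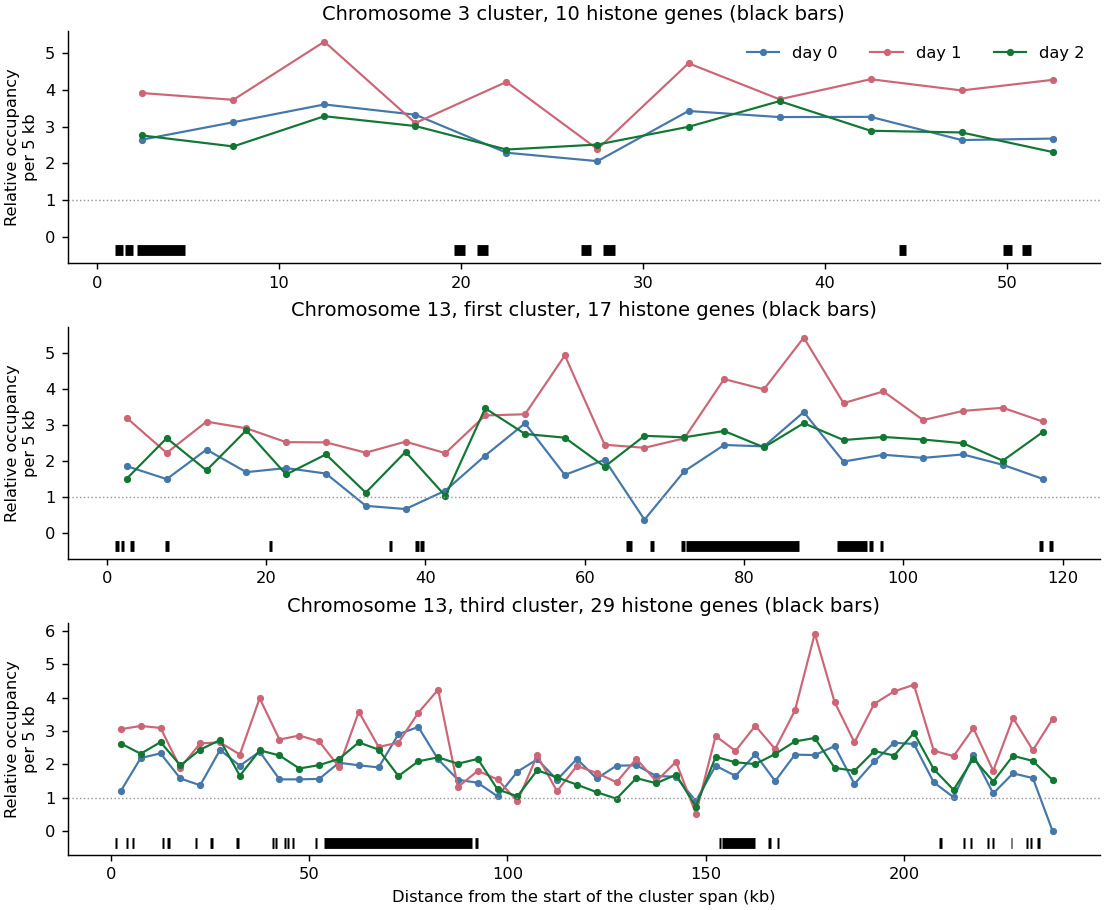
Relative occupancy per 5 kb (autosome mean 1, linear axes) along the chromosome 3 cluster and the first and the third cluster of chromosome 13 on culture days 0, 1 and 2; black bars are histone gene spans and the horizontal axis is the distance from the start of the cluster span in kb. Day 1 lies above day 0 along most of each cluster, while days 0 and 2 cross repeatedly.

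The gain was not limited to the genes. The cluster spans stood at 2.00, 2.97 and 2.20 on days 0, 1 and 2, from 1279, 1457 and 1534 positions in 421168 bp. The 200 kb on each side stood at 1.91, 1.98 and 1.66. On chromosome 13 some of these side stretches overlap and were counted more than once, and some hold parts of a neighbouring cluster. Those of the third cluster hold the whole last cluster, and those of the last hold part of the third. The scaling to the 200 kb used the same stretches. The pooled gene windows covered 182548 bp, long H2B spans of up to 37455 bp among them, and were not measured without these. Within the clusters, gene windows had 1.86, 2.84 and 2.16 and the spaces between them 2.10, 2.99 and 2.21, which gives ratios of genes to spaces of 0.88, 0.95 and 0.98. The direction turned to 1.12, 1.26 and 1.17 with gene spans alone and to 1.08, 1.03 and 1.01 among positions of low fuzziness. By number of positions the ratio per kb was 0.91 (exact 95% interval 0.81 to 1.02), 0.93 (0.84 to 1.04) and 0.98 (0.88 to 1.08), so a difference between genes and spaces was not detectable from the counts. These intervals, and those below, cover counting error only. For the whole genome, windows of protein-coding genes stood at 1.92, 2.16 and 1.64 times the rest of the autosomes. Genes stood below spaces on each day on chromosome 3 (0.80 each day). In the third cluster of chromosome 13 the ratio was 0.96, 1.05 and 1.11, in the first 0.88, 0.94 and 0.99, and in the second, with 11, 8 and 11 positions in its spaces, 0.71, 1.47 and 0.60.

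Few positions lay around the starts of histone genes. From 200 bp upstream to 50 bp inside the start, in 12.7 kb over 58 genes with a known strand, there were 10, 8 and 16 position centres on days 0, 1 and 2. That is 0.78 per kb (exact Poisson 95% interval 0.38 to 1.44), 0.63 (0.27 to 1.24) and 1.26 (0.72 to 2.04). All genes had 2.24, 2.35 and 2.75 per kb there, above each of these intervals. Other short genes, with 1.44, 1.23 and 1.72, lay inside them, at the upper ends on days 0 and 1. From 51 to 450 bp inside the gene the histone genes had 3.49, 4.83 and 4.61 per kb, against 3.29, 3.72 and 3.76 in all genes. By relative occupancy the start stood at 0.22, 0.10 and 0.24 of the inside in histone genes, and at 0.63, 0.52 and 0.66 in all genes.

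**Figure D3:**
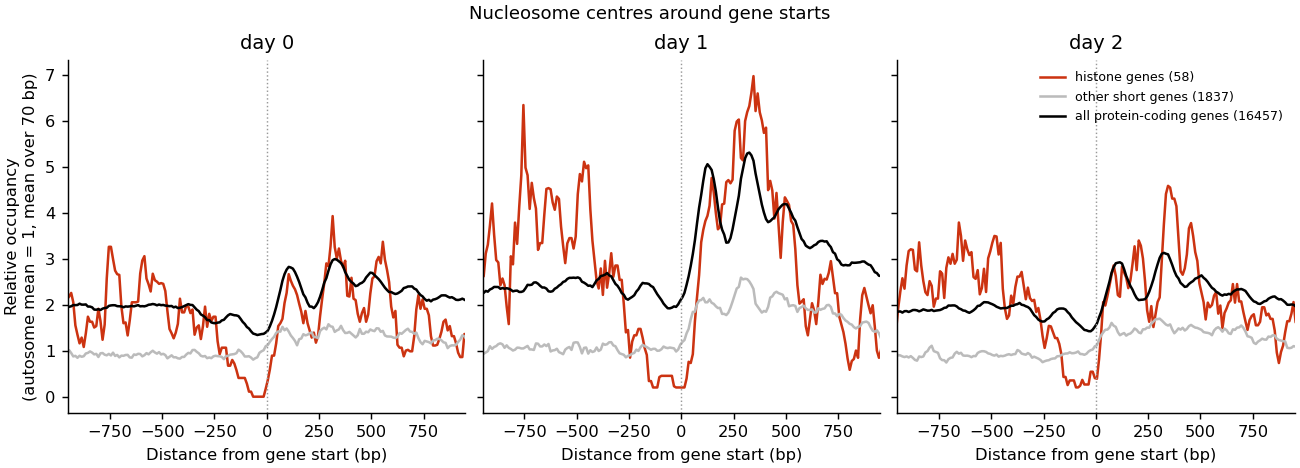
Relative occupancy (autosome mean 1, mean over 70 bp, linear axis) by distance from the gene start in bp, inside the gene to the right, for 58 histone genes, 1837 other short genes and all 16457 protein-coding genes with a known strand, on days 0, 1 and 2. The histone line falls to between 0 and 0.20 upstream of the start on each day, where that of all genes stays above 1.3.

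The families shared this pattern unequally. The ratio of start to inside was 0.09, 0 and 0.05 in H3 genes, 0.15, 0.06 and 0.10 in H2B genes, 0.09, 0.04 and 0.22 in H2A genes and 0.33, 0.17 and 0.51 in H4 genes. In the 6 H1 genes it was 0.76, 0.47 and 0.34, and the H1 starts held 5, 4 and 4 centres of the 10, 8 and 16. With so few centres, differences between families rest on single positions. The 10 replacement and variant histone genes with a known strand, which are transcribed outside S phase as well, had 0.23, 0.26 and 0.39, from 3, 4 and 4 centres. The 11 factors of histone gene transcription and mRNA processing had 0.49, 0.39 and 0.54.

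The nearest centres on each side of the start lay closer on day 2 than on day 0 in histone genes and in other genes. The median distance between them was 734 bp, 560 bp and 480 bp over the 58 histone genes, and 510 bp, 495 bp and 375 bp over 16457 genes. Over 1837 other short genes it was 2742 bp, 4500 bp and 1130 bp, wider than in the histone genes. It exceeded 300 bp in 52, 54 and 50 of the 58 histone genes (89.7%, 93.1% and 86.2%). The same was so in 81%, 82.7% and 76% of other short genes and in 68.7%, 66.9% and 59.6% of all genes. H4 genes had the widest medians on day 0 and day 2, 1002 bp and 628 bp, with 638 bp on day 1. H1 genes had 283 bp, 525 bp and 234 bp. At H1f5 the distance was 3638 bp, 570 bp and 152 bp, at H4c8 1280 bp, 485 bp and 265 bp, and at H3c6 715 bp, 622 bp and 710 bp. Distances also depend on how many positions were called, which differed between the lists.

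**Figure D4:**
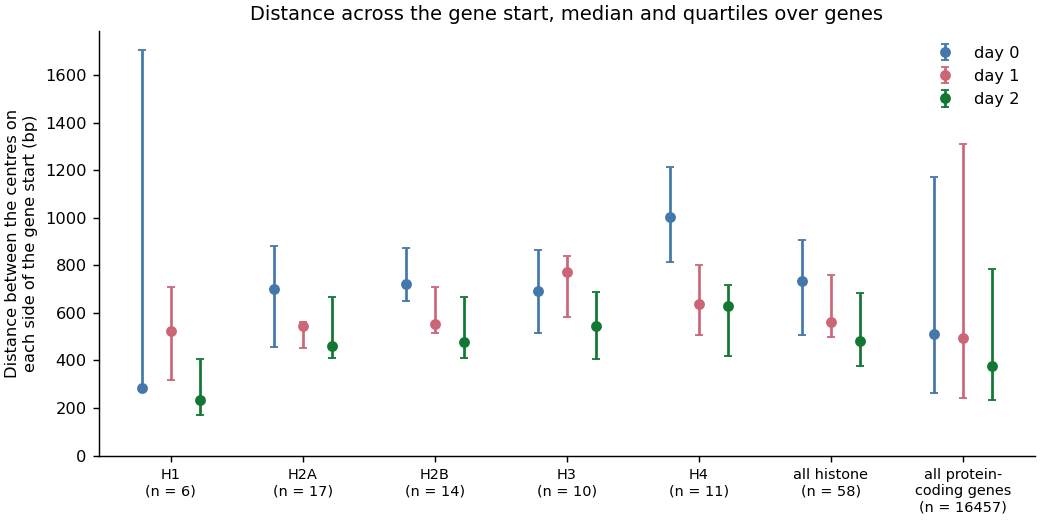
Distance in bp (linear axis from 0) between the nearest position centres on each side of the gene start, by histone family and for all protein-coding genes, on days 0, 1 and 2; points are medians over genes and bars run between the quartiles over genes. For all histone genes together the medians fall from day to day (734, 560 and 480 bp).

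Gaps between divergent H2A and H2B genes were nearly free of position centres. There were 9 such pairs with a known strand for both genes, with gaps of 163 to 280 bp and a median of 179 bp. No centre lay in 8, 8 and 9 of the 9 gaps on days 0, 1 and 2, while the genes of these pairs held 3.50, 4.55 and 4.28 centres per kb. The gap of H2bc1 and H2ac1, the testis pair, was the exception, with 1, 1 and 0 centres, and it was also the widest. The shortest, between H2ac15 and H2bc15, lies in the H2bc15 sequence above. Its nearest centre to the middle was 428 bp, 232 bp and 122 bp away, so the wide empty stretch of day 0 was narrower on day 2. Between H2ac12 and H2bc12 the same distance was 209 bp, 211 bp and 239 bp, and between H2bc23 and H2ac23, with a gap of 167 bp, 186 bp, 142 bp and 177 bp. The centres on either side of a gap were a median of 740 bp, 545 bp and 418 bp apart.

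Short divergent gaps elsewhere were often empty too. Of 75 divergent pairs of other genes with gaps in the same range, 60, 65 and 55 had no centre on days 0, 1 and 2, or 86.7% on day 1 and 73.3% on day 2, within the exact 95% intervals of the histone pairs (51.8 to 99.7% on days 0 and 1, from 66.4% upward on day 2). Empty gaps on all 3 days made up 8 of 9 histone pairs (51.8 to 99.7%) and 47 of 75 others (62.7%, 50.7 to 73.6%), so a difference was not detectable at these numbers. Neighbouring histone genes in the same direction had wider gaps, 544 to 847 bp, and held 15, 10 and 18 centres in 9 gaps.

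**Figure D5:**
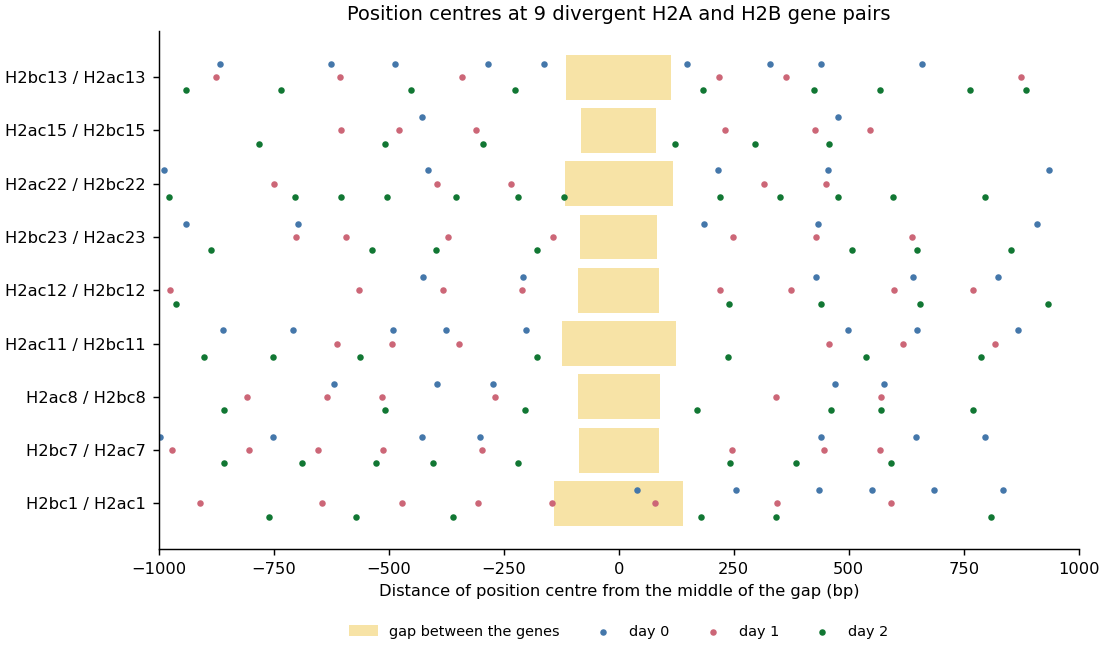
Position centres around the gaps (yellow) of 9 divergent H2A and H2B gene pairs; the horizontal axis is the distance from the middle of the gap in bp and each point is 1 position centre on day 0, 1 or 2. A centre lies inside the gap only at H2bc1 and H2ac1, with 1 on day 0 and 1 on day 1.

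The short gene bodies held few nucleosomes. The 58 genes with spans up to 1 kb had a mean of 1.76, 2.29 and 2.26 centres inside the span, and none more than 4. Without a centre were 8, 2 and 4 of them, and 16, 26 and 21 had 3 or more. Occupancy was lower behind the gene end, with 2.59, 5.19 and 2.88 in the last 200 bp inside and 1.44, 1.67 and 1.76 between 200 and 500 bp downstream. In all genes these zones had 1.77, 1.94 and 1.54, and 2.05, 2.30 and 1.77. In other short genes they had 1.11, 1.35 and 1.19, and 0.98, 0.97 and 0.89, so there too occupancy was lower behind the end.

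By raw share, positions at histone genes coincided between days about as often as at other short genes. Shifted shares carry no interval here, so differences in the margin over them were not tested. Of 523 positions of day 0 in the gene windows, 22% had a centre of day 1 within 20 bp (exact Clopper-Pearson 95% interval 18.5 to 25.8%), where 15.5% did after shifts of 1000 bp. For day 0 in day 2 the shares were 20.3% (16.9 to 24%) and 17.9% after the shift, and for day 1 in day 2 21.7% (18.4 to 25.2%) and 19% after the shift. Only the share from day 0 to day 1 had an interval wholly above its shifted share. In the spaces the shares, in the same order, were 19%, 20.1% (17.2 to 23.2%) and 21.4% (18.6 to 24.4%), against 16.8%, 15.9% and 16.4% after the shift. There the shares from day 0 to day 2 and from day 1 to day 2 lay wholly above. Windows of other short genes had 18.7%, 19.6% and 21.4%, inside the intervals of the histone genes, and those of all genes 15.4%, 17.1% and 19.4%. Centres of all 3 days coincided at 25 of the 523 (4.78%, 3.12 to 6.98%), and 15 of these lay inside gene spans. Those included H2ac20, H2ac21 and H3c14 on chromosome 3, H2bc9 on chromosome 13 and 11 in long H2B spans.

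Fuzziness was lower than that of all genes on day 0 and higher on days 1 and 2. Its median in the histone gene windows was 50.9 (95% interval of the median over positions 50.3 to 51.4), 55.4 (55.0 to 55.8) and 53.0 (52.5 to 53.5), against 51.6, 54.8 and 51.7 in the windows of all genes, which lie outside these intervals. Summit values had medians of 7.62, 7.12 and 6.88, against 7.62, 6.80 and 6.26. The share with a summit value of 10 or more was 12.8%, 18% and 16.4%, against 17.5%, 15.6% and 11.1%, lower than in all genes on day 0 and higher on days 1 and 2. In windows of other short genes this share was 25.1%, 28.2% and 15.8%, and in the spaces 17.2%, 17.5% and 15.8%. Median fuzziness was 52.0, 55.2 and 51.8 in other short genes and 52.2, 55.6 and 53.0 in the spaces. On days 1 and 2 the spaces lay inside the fuzziness intervals of the histone gene windows, so those values were not particular to the genes.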

How the data were processed

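Single-nucleosome DNA of 3 libraries was sequenced after digestion with micrococcal nuclease, per the series' design text. Per the submitters' processing notes, Bowtie2, bedtools and the build mm10 were used; the sources used here give no versions, no position caller and no handling of repeated reads. The summit signal of each position was smoothed and normalised by the authors, per the file headers. The fuzziness score and the p-value columns were also deposited by the authors, and the p-values were used in no comparison. Positions were called in each library separately, so the sum over a region also reflects how many were called.

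Positions were assigned to genes by their centre, in the gene span with 1 kb on each side. Genes were those of the RefSeq table of GRCm38.p6 on chromosomes 1 to 19, without 105 genes placed below 3 Mb. Ratios needed at least 3 positions on both days. Neighbouring windows overlap and share positions. The members, lists and rules were chosen with earlier results of these data known. In each family the genes named are those highest and lowest on day 2 and with the largest and smallest ratio of day 2 over day 0, together with testis histones and gene pairs with short gaps; H2bc18, H3c13, H2ac18, H4c3, H1f10, Npat and the genes listed as meeting the size rule were named after their values were seen. Of 16 listed factors 14 were used, since Cstf2 lies on chromosome X and the listed symbol Symplk matched no gene of the table. AAACACA was added as a motif after the other motifs. Alternatives were other windows, weights, thresholds, scalings, tolerances and joining distances. The procedures were tested on simulated data. Python 3.11.15, numpy 2.4.6, pandas 2.3.3, scipy 1.17.1, Biopython 1.88 and matplotlib 3.10.9 were used.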

Additional observations from a re-analysis of the deposited data

How the results depend on the processing

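No paired analysis was possible because there was 1 library per day, and for the same reason no library could be left out of a comparison. Of 237 values under alternative settings, 129 kept direction and size, 92 moved and 16 reversed; the cause was not tested. The setting without the 5 long-span genes, start zones at 16 steps or at low fuzziness, and gaps at 16 steps were chosen after seeing the data. Where all genes were also computed, the median log2 ratio of the histone genes stayed above theirs for day 1 over day 0 and day 2 over day 0, except at low fuzziness (0.20 in both for day 1 over day 0, and -0.26 against -0.18 in all genes for day 2 over day 0).

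Median occupancy on days 0, 1 and 2 was 2.26, 4.33 and 2.64 in spans alone, 1.29, 3.44 and 2.60 at summit values of 10 or more, 0.96, 1.36 and 1.21 scaled to the median gene and 0.92, 1.39 and 1.24 scaled to the 200 kb beside clusters. With at least 16 steps it was 0 on day 0 and 2.58 on day 2, and at low fuzziness 2.29 on day 1 and 1.66 on day 2.

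Day 1 over day 0 had a median log2 ratio of 0.42 with 500 bp flanks, 0.47 at summit values of 10 or more (5 genes), 0.027 at 16 steps (3 genes) and 0.20 at low fuzziness. Genes at least 2 times higher numbered 8 of 46 with 500 bp flanks, 3 of 15 in spans alone, 9 of 61 with each position counted once, 2 of 5 at 10 or more, 0 of 3 at 16 steps, 6 of 34 at low fuzziness, 9 of 50 with 5 positions, 10 of 35 without overlapping windows and 39 at 1.5 times. Lower were 2 at low fuzziness, and 1 each with positions counted once, at 16 steps, at 1.5 times and under both scalings. Of all genes, 3.15% with 500 bp flanks, 3.47% in spans alone and 1.99% with positions counted once were at least 2 times higher. The share was 14.1% at 10 or more, 11.5% at 16 steps, 6.12% at low fuzziness and 2.60% with 5 positions. At least 2 times lower were 4.34% at low fuzziness, 4.65% with positions counted once, 25.4% at 16 steps and 7.13% scaled to the median gene. All genes were not counted at 1.5 times, without overlapping windows or at the 200 kb scaling.

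Day 2 over day 1 reversed to 0.17 at 10 or more (9 genes) and 1.00 at 16 steps (17 genes), and was -0.12 scaled to the median gene and -0.23 to the 200 kb. Higher were 8 at 16 steps and 0 with 500 bp flanks, spans alone, 10 or more, low fuzziness or 5 positions. Lower were 0 in spans alone, at 10 or more and at 16 steps, 2 scaled to the median gene, 3 without overlapping windows and 22 at 1.5 times. Of all genes, 10.2% at 16 steps, 7.71% with 500 bp flanks and 7.71% in spans alone were higher. Also higher were 9.89% at 10 or more, 5.83% at low fuzziness and 6.77% with 5 positions. Lower among all genes were 4.12% in spans alone, 10.3% at 10 or more, 8.34% at 16 steps and 0.65% scaled to the median gene.

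Day 2 over day 0 was 0.074 with positions counted once, 0.55 at 10 or more, 0.41 scaled to the 200 kb and -0.26 at low fuzziness, where H2A (-0.22), H2B (-0.39) and H4 (-0.18) also reversed; H3 reversed to 0.14 and 0.19 under the scalings. Higher were 4 with 500 bp flanks, 0 in spans alone, at 10 or more and at 16 steps, 1 at low fuzziness, 2 with 5 positions and 15 at 1.5 times. Lower were 2 with 500 bp flanks, 4 at low fuzziness and 1 each with positions counted once and at 1.5 times. Of all genes, 5.87% with 500 bp flanks, 5.72% in spans alone and 13.1% at 10 or more were higher. So were 11.4% at 16 steps, 4.53% at low fuzziness and 5.19% with 5 positions. At least 2 times lower were 2.45% with 500 bp flanks, 4.40% at low fuzziness and 1.60% with positions counted once.

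Cluster spans stood on days 1 and 2 at 2.80 and 1.998 with positions counted once, 3.73 and 3.54 at 10 or more, and 2.57 and 2.04 when joined within 500 kb. At low fuzziness the 3 days had 1.87, 2.42 and 1.64, and at 16 steps day 0 had 1.85 and day 2 3.55. Genes over spaces reversed to 1.12, 1.26 and 1.17 in spans alone, to 1.08, 1.03 and 1.01 at low fuzziness and to 1.09 and 1.02 on days 1 and 2 within 500 kb, and was 0.68 on day 0 at 10 or more. Shared positions (day 0 in 1, 1 in 2, 0 in 2) were 10.3%, 11.7% and 10.9% within 10 bp, 38.6%, 38.5% and 37.5% within 40 bp, and 5.97%, 9.26% and 4.48% at 10 or more. Start over inside was 0 on day 1 and 0.087 on day 2 at 10 or more, and on day 2 0.084 at 16 steps and 0.43 at low fuzziness. Few positions per gene limit every single-gene value.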

Other observations

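The replacement and variant histone genes, which supply chromatin outside replication, stood higher than the clustered genes on each day. Over 11 genes the median relative occupancy was 3.25, 5.24 and 3.08 on days 0, 1 and 2, beside 1.81, 2.75 and 2.06 in the 63 clustered genes. Their spans are longer, with a median of 4079 bp against 492 bp, so the windows differ in what they hold. The log2 ratio of day 1 over day 0 was above 0 in 10 of the 11, and in 11975 of 18380 genes as a whole. It met the size rule of 2 times upward in 1, H1f10 (1.06), a linker histone gene, where 2.94% of all genes did. Downward it met the rule in 0, where 5.81% of all genes did. Day 2 over day 1 was below 0 in all 11, and in 12659 of 18515 genes as a whole. It met the rule in 0, where 7.85% of all genes did upward and 2.57% downward. From day 0 to day 2 the ratio was largest at H2az2 (0.43), which codes for an H2A.Z protein, with 1.84, 3.45 and 2.47, and smallest at Macroh2a2 (-0.55), which codes for a macroH2A protein, with 2.35, 1.78 and 1.60.

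The factors that act on histone genes and their mRNAs had medians of 2.49, 2.62 and 2.11 over 14 genes, and 0 met the size rule in any of the 3 comparisons. Of all genes, 2.94%, 7.85% and 6.05% met it upward for day 1 over 0, 2 over 1 and 2 over 0. Downward the shares were 5.81%, 2.57% and 2.37%. Cpsf3, the nuclease that cuts the mRNA end, had the largest ratio of day 2 over day 0 (0.20), with 1.37, 2.31 and 1.58, and Zfp473, which binds the processing machinery, the smallest (-0.63), with 2.55, 2.28 and 1.65. Npat, which organises the histone locus body, had 1.42, 1.03 and 1.34. Hfe, inside the third cluster of chromosome 13, had 2.36, 4.58 and 2.65, and H4bc24, at the edge of the first, 2.66, 3.93 and 2.20, both highest on day 1. Away from the clusters and outside the symbol rule, H2bu2 on chromosome 11 had 2.58, 4.55 and 2.64, and H4f16 on chromosome 6 2.66, 2.38 and 1.24.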
